A study of Mus musculus with 51 samples.

Results

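Hind paw tissue of male C57 mice was compared between animals sampled 22 days after their last dose of paclitaxel (PTX) and animals given vehicle. The comparison holds 6 of the 51 libraries of the series, chosen by their titles: 3 paw libraries of PTX day 22 and the 3 paw libraries titled as controls of day 2. The PTX mice had received 2 mg/kg of the drug by the intraperitoneal route in 2 injections a day apart, and the vehicle mice were injected without the drug. All animals were 8 to 12 weeks old, carried no allele that the labels mention, and gave punch biopsies of the hind paw, taken from both sides according to the series description. The remaining 9 paw libraries, 3 each of PTX days 2, 7 and 35, entered the same fit and are used where days are set side by side.

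The only paw vehicle libraries are those titled day 2, so PTX and the later sampling day, with whatever age or collection session goes with it, cannot be told apart in this comparison. The series description places the vehicle samples at other days than the titles do, and the titles were followed. No label ties a library to its own animal, so the p-values measure only the spread between these libraries, which may be technical. A lower or higher level in bulk tissue can come from fewer or more cells of a type or from less or more RNA per cell, and these cannot be told apart here.

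Paclitaxel stabilises microtubules, is used against solid tumours and commonly causes a painful sensory neuropathy of the hands and feet. The paw biopsy holds the epidermis, the dermis with its fibroblasts, vessels, nerve endings and resident immune cells, and some of the fat and muscle beneath. Mast cells and macrophages of the dermis lie close to vessels and nerve endings, and fibroblasts of the dermis lay down its collagen.

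The 15 paw libraries held 13346971 to 21697763 reads assigned to genes, and the 6 compared here held 16194675 to 21697763. Their tissue label fitted their markers. The epidermal keratin Krt14 lay at 1641 to 2593 reads per 1000000 gene reads (CPM) over the 6 libraries and the muscle actin Acta1 at 2306 to 6663, while the central myelin gene Mog had 0 to 6 reads and the sensory neuron channel gene Scn10a 37 to 48 reads. Among these 6, PTX day 22 replicate 3 stood apart. The 10 markers of B and plasma cells summed to 2.36, 1.59 and 127 CPM in the PTX day 22 libraries, against 1.42, 1.72 and 2.07 in the vehicle libraries, with Cd79a and Ms4a1 at 0 reads in every vehicle library. Bone sialoprotein (Ibsp) had 2, 2 and 1939 reads in PTX day 22 replicates 1, 2 and 3, and 28 reads in the 3 vehicle libraries together. Myeloperoxidase (Mpo), a granule enzyme of the neutrophil line, had 2, 0 and 105 reads in those PTX day 22 libraries, and 1 read in the vehicle libraries together. The same replicate was lowest for the hair follicle list of 20 genes, whose sum was 1127, 1285 and 103 CPM in PTX day 22 and 288, 858 and 561 in vehicle. Vehicle replicate 2 had the largest share of reads aligned in several places, 157 per 100 gene reads, where the other 14 paw libraries had 117 or fewer. It also had the most reads outside any gene, 44.1 per 100 gene reads, where the other 14 had at most 23.7.

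At PTX day 22, 170 of 15199 genes passed edgeR's quasi-likelihood test with a Benjamini-Hochberg adjusted p under 0.05, which is 1.12% of the genes tested. Of these, 159 were higher in PTX day 22 (1.05%) and 11 were lower (0.0724%). The higher genes included those of mast cell proteases, type I collagen and its processing enzymes, receptors and signalling proteins of macrophages and other leukocytes, and complement components. Their log2 fold changes ran from 0.54 to 3.08 with a median of 1.14, beside a median of 0.02 over all genes tested. The lower genes ran from -2.94 to -0.39 and included Ptgs2, which encodes the inducible cyclooxygenase. All 170 had libraries that did not overlap between the groups, as had 24.6% of all genes tested.

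The calls lay close to the threshold: adjusted p ran from 0.023 to 0.0499 and exceeded 0.04 for 129 of the 170 in edgeR's quasi-likelihood test. Their number depended on single libraries. It was 1255 without PTX day 22 replicate 3, 116 without replicate 1 and 0 without replicate 2, where 1608 genes had an unadjusted p under 0.05. It was 20 without vehicle replicate 3 and 0 without vehicle replicate 1 or 2, with 2272 and 2213 genes at an unadjusted p under 0.05. Among the 159 higher genes, PTX day 22 replicate 2 held the highest level for 137, and replicate 3 the lowest for 98. DESeq2's Wald test on the same libraries called 1321 genes, of which 71.5% were higher, against 93.5% in edgeR.

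**Figure D1:**
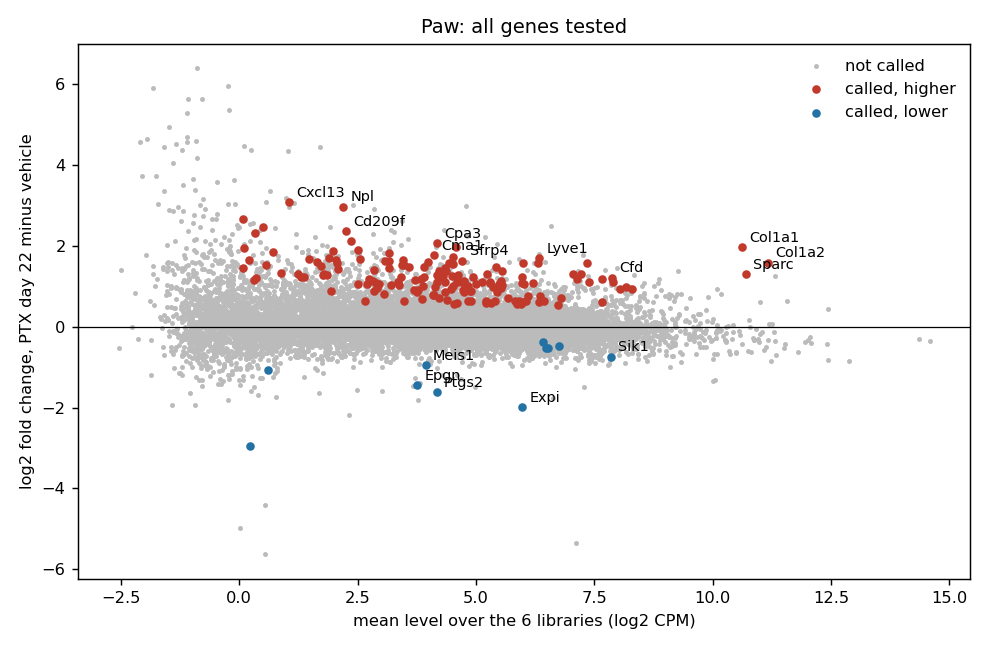
Log2 fold change of PTX day 22 minus vehicle (vertical axis) against the mean level over the 6 libraries in log2 CPM (horizontal axis) for the 15199 genes tested. Each point is 1 gene; the 159 genes called higher lie above zero over the whole range of levels, with Col1a1, Col1a2 and Sparc at the right, and the 11 called lower are few.

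Mast cell genes were among those higher in PTX day 22 paws. Of 18 mast cell genes tested, 6 rose and none fell, where 1.05% of all genes tested were called higher. Their median log2 fold change was 1.46, and 14 of the 18 had PTX day 22 libraries all above vehicle, where 14.8% of all genes tested had. The promoters of the called genes are shown first because these genes moved together. RefSeq (GRCm38.p6) gave a window from 250 bases before to 50 bases after the start for 5 of the 6, and capitals mark the letters GATAA or, read on the other strand, TTATC, the core that GATA family factors bind. GATA2 is the family member that mast cells need. The windows, all on the minus strand and written 5′ to 3′, are those of Cma1 at chr14:55944626-55944925, Cpa3 at chr3:20242132-20242431, Fcer1a at chr1:173227180-173227479, Mcpt4 at chr14:56062261-56062560 and Mrgprb1 at chr7:48456293-48456592.
Cma1: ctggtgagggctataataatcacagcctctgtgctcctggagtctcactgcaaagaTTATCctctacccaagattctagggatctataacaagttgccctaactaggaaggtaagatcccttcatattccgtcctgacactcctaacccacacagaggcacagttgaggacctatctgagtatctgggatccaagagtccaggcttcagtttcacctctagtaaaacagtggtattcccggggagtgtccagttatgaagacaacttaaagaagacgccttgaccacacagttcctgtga
Cpa3: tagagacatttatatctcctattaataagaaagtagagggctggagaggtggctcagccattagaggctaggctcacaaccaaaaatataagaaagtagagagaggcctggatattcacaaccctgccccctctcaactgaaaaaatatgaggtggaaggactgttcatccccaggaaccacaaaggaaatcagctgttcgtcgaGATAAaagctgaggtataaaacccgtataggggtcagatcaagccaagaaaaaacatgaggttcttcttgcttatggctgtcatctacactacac
Fcer1a: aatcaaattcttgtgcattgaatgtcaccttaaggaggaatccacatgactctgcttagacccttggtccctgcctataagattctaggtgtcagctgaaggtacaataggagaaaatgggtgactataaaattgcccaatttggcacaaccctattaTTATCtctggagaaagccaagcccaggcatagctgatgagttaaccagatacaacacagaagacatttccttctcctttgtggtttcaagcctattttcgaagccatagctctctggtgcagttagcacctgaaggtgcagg
Mcpt4: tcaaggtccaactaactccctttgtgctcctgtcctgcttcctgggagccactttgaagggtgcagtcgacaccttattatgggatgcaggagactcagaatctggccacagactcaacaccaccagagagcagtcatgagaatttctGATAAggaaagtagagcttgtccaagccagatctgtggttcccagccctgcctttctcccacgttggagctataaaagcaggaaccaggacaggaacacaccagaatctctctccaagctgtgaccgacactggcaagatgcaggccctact
Mrgprb1: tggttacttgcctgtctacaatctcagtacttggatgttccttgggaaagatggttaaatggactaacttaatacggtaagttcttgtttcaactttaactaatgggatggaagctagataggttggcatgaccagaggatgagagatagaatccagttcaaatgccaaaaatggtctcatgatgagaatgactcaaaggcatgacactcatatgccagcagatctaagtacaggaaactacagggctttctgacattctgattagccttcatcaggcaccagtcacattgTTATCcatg
Each of the 5 windows held 1 copy, on either strand, and 25.41% of the 32851 windows in the table held at least 1. Among the genes tested here that had a window, 1980 of 11909 (16.63%) held it. Windows of the other called groups were searched on both strands as well: CCAAT lay in 1 of 4 windows of called collagen genes (37.95% of windows of tested genes), and GAGGAA, the core that PU.1 binds, in 3 of 6 windows of called lectin and macrophage genes (26.77%). A match of a few letters describes the sequence and is not a bound site.

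The proteases of the mast cell granule gave the clearest levels. Cma1, a chymase, stood at 34.9, 43.8 and 20.7 CPM in the 3 PTX day 22 libraries, against 7.51, 7.85 and 13.6 CPM in the 3 vehicle libraries. Replicate 2 of PTX day 22 was the highest and replicate 3 the lowest, and all 3 lay above every vehicle library. The log2 fold change was 1.77 ± 0.29 (SE; edgeR quasi-likelihood adjusted p = 0.0294). Cpa3, the carboxypeptidase stored with the chymases, stood at 38.6, 54.1 and 28.7 CPM in PTX day 22 and 5.84, 5.41 and 17.5 CPM in vehicle. Its log2 fold change was 2.07 ± 0.41 (edgeR adjusted p = 0.0456), and vehicle replicate 3 lay nearer to the PTX day 22 libraries than the other two vehicle libraries did. Mcpt4, another chymase, stood at 46.7, 59.2 and 27.5 CPM in PTX day 22 and 9.0, 9.3 and 21.7 CPM in vehicle, a log2 fold change of 1.73 ± 0.36 (edgeR adjusted p = 0.0476). Tpsb2, a tryptase, averaged 29.1 ± 11.6 CPM in PTX day 22 and 9.57 ± 3.83 CPM in vehicle (SD, n = 3 each), and its log2 fold change was 1.6 ± 0.32 (edgeR adjusted p = 0.0456).

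Among the surface receptors on the mast cell list, Mrgprb1 and Fcer1a were called. Mrgprb1, a receptor of the Mas-related family, averaged 10.9 ± 4.31 CPM in PTX day 22 and 3.37 ± 1.34 CPM in vehicle (SD, n = 3 each), and its log2 fold change was 1.68 ± 0.32 (edgeR adjusted p = 0.0417). Fcer1a, the IgE-binding chain of the high-affinity IgE receptor, was scarce, at 2.37, 3.68 and 1.96 CPM in PTX day 22 and 0.124, 0.232 and 0.833 CPM in vehicle, and its log2 fold change was 2.66 ± 0.55 (edgeR adjusted p = 0.0456). The groups did not overlap for either gene. Other members did not pass: Mrgprb2, the mast cell receptor for basic peptides, had a log2 fold change of 1.01 ± 0.26 (edgeR adjusted p = 0.0635), and Hdc, which makes histamine, 1.69 ± 0.52 (edgeR adjusted p = 0.104). Kit, the stem cell factor receptor that pigment cells also carry, had 0.26 ± 0.16 (edgeR adjusted p = 0.427), and Gata2 0.63 ± 0.20 (edgeR adjusted p = 0.116), with overlapping libraries for Gata2. Rab27b, which controls granule release and is not particular to mast cells, had the lowest value on the list, -0.51. Mcpt1 and Mcpt2, proteases of mucosal mast cells in the mouse, did not reach the filter on low counts.

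The summed level of the 20 mast cell markers was 389, 451 and 369 CPM of gene reads in PTX day 22, against 235, 244 and 335 in vehicle, so that the lowest PTX day 22 library lay just above the highest vehicle library. Kit and Rab27b, which other cells also carry, gave 42.0%, 31.5% and 62.7% of that sum in PTX day 22 and 77.6%, 76.9% and 70.2% in vehicle. Without both, a choice made after their values were seen, the other 18 markers summed to 226, 309 and 138 CPM in PTX day 22 and 52.5, 56.4 and 99.8 in vehicle. Without PTX day 22 replicate 3 the list had 10 members called higher and 1 lower with a median of 1.56, and without replicate 2 it had none called with a median of 1.17. Of the 50-base windows of the Cma1 and Mcpt4 transcripts, 5.38% and 5.48% also occur in other genes, and reads with several alignments were counted to no gene.

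Collagen genes and genes of collagen processing were also among those higher in PTX day 22 paws. Of 13 fibrillar collagens, 3 rose and none fell, with a median log2 fold change of 0.98. Of 17 network and microfibril collagens, 2 rose (median 0.47). Of 27 genes for collagen processing and crosslinking, 4 rose (median 0.80), where 1.05% of all genes tested were called higher. The fibrillar list took 1.35%, 1.53% and 1.04% of gene reads in PTX day 22 and 0.413%, 0.444% and 0.510% in vehicle, 2 ranges that did not overlap.

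Col1a1, a chain of type I collagen, stood at 3079, 3191 and 3151 CPM in PTX day 22, against 712, 841 and 856 CPM in vehicle. The 3 PTX day 22 libraries lay close together here, unlike in most called genes, and the log2 fold change was 1.97 ± 0.33 (edgeR quasi-likelihood adjusted p = 0.0294). Col1a2, the partner chain, averaged 3972 ± 158 CPM in PTX day 22 and 1331 ± 143 CPM in vehicle (SD, n = 3 each), with a log2 fold change of 1.58 ± 0.33 (edgeR adjusted p = 0.0465). Col5a1, whose type V collagen starts fibril growth, stood at 425, 512 and 299 CPM in PTX day 22 and 194, 218 and 214 CPM in vehicle (0.98 ± 0.22, edgeR adjusted p = 0.0483). Col3a1, the type III chain, stood at 4447, 5411 and 2396 CPM in PTX day 22 and 1531, 1577 and 2022 CPM in vehicle. Its libraries did not overlap either, but the PTX day 22 values were spread and it did not pass (1.26 ± 0.39, edgeR adjusted p = 0.107).

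Col6a1 and Col6a2, chains of the beaded type VI collagen around cells, had log2 fold changes of 0.94 ± 0.18 (edgeR adjusted p = 0.0407) and 1.17 ± 0.20 (edgeR adjusted p = 0.0316). For Col6a2 the libraries read 302, 400.1 and 223 CPM in PTX day 22 and 124, 139 and 147 CPM in vehicle. The processing genes called were Adamts2, which trims the amino end of procollagen, Pcolce, which aids trimming of the carboxyl end, Serpinh1, the collagen chaperone HSP47, and Fkbp10, a prolyl isomerase of the endoplasmic reticulum. Adamts2 stood at 107, 139 and 87.4 CPM in PTX day 22 and 32.3, 33.8 and 45.3 CPM in vehicle, a log2 fold change of 1.58 ± 0.22 (edgeR adjusted p = 0.023). Pcolce had 1.30 ± 0.22, Serpinh1 1.11 ± 0.18 and Fkbp10 0.98 ± 0.17 on the same scale. In each of these the lowest PTX day 22 library exceeded the highest vehicle library.

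Matrix glycoproteins included 3 called of 33 tested, all higher, with a list median of 0.79, where 1.05% of all genes tested were called higher. Sparc, which binds collagen, stood at 2889.6, 3027 and 2018 CPM in PTX day 22 and 1015, 1027 and 1193 CPM in vehicle (1.29 ± 0.27, edgeR adjusted p = 0.0456). Efemp2, which elastic fibres need for assembly, and Emilin1, which sits on them, had log2 fold changes of 1.24 ± 0.25 and 1.11 ± 0.24. Tgfb1, the cytokine best known for raising collagen synthesis, was the only one of 21 genes of the TGF-beta and myofibroblast list that was called, at 30.7, 38.9 and 27.6 CPM in PTX day 22 and 15.5, 17.1 and 15.7 CPM in vehicle (1.01 ± 0.22, edgeR adjusted p = 0.0478). That list had a median of 0.41, and 8 of its genes were higher with an unadjusted p under 0.05 in edgeR's test. None of 21 matrix proteases and inhibitors was called in edgeR's test; 11 were higher with an unadjusted p under 0.05, as were 12.6% of all genes tested, and DESeq2 called 7. Timp1, an inhibitor of these proteases, stood at 8.02, 45.3 and 20.5 CPM in PTX day 22 and 3.54, 4.36 and 6.66 CPM in vehicle (2.33 ± 0.67, edgeR adjusted p = 0.0906).

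Fibroblast markers gave no call among 16 tested in edgeR's test, and DESeq2 called 9. All 16 values were positive, as were 52.4% of all genes tested, and their median was 0.82. In edgeR's test 11 were higher with an unadjusted p under 0.05 (12.6% of all genes tested were). The 17 fibroblast markers summed to 11645, 13268 and 6079 CPM of gene reads in PTX day 22 and 6453, 6206 and 7094 in vehicle. In PTX day 22 replicate 3 that sum was the lowest of the 6, but Gsn, the actin-severing gelsolin, made up 64.5% to 74.2% of it over the 6 libraries. Without Gsn, left out after its values were seen, the sum was 3459, 4709 and 2048 CPM in PTX day 22 and 1666, 1629 and 1845 in vehicle, and the groups did not overlap. The Col1a1 level of replicate 3 was as high as in the other PTX day 22 libraries. That replicate also had 1939 and 342 reads of the bone genes Ibsp and Bglap, against at most 2 reads of each in the other PTX day 22 libraries. Without replicate 3 the log2 fold change of Col1a1 was 1.97 and that of Col1a2 1.6, and 8 fibrillar, 6 network and 12 processing genes were called higher. Without replicate 2 none of these lists had a call, and Col1a1 had 1.96.

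Genes of macrophages and other leukocytes made up a further group of the genes called higher. Of 25 macrophage and monocyte genes, 2 rose and none fell, all 25 values were positive, and the median log2 fold change was 1.36. Of 23 C-type lectin and CD300 receptor genes, 5 rose and all 23 values were positive, with a median of 1.65. Over all genes tested, 1.05% were called higher and 52.4% had a positive value.

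Cd209f, Cd209d, Cd209g and Cd209b encode lectins related to human DC-SIGN that bind sugars on microbes and are carried by subsets of tissue macrophages in the mouse. Cd209f stood at 11.5, 15.6 and 5.73 CPM in PTX day 22, against 1.99, 2.03 and 2.36 CPM in vehicle, a log2 fold change of 2.36 ± 0.35 (edgeR adjusted p = 0.0256). Cd209d had 1.89 ± 0.37, Cd209g 2.47 ± 0.51 and Cd209b 1.87 ± 0.39, and none of the 4 had overlapping groups. Cd209f and Cd209g share 29.8% and 16.6% of their 50-base windows with other genes, mainly with each other, so their separate values are uncertain. Cd300ld, an activating receptor of myeloid cells, stood at 7.47, 17.8 and 8.02 CPM in PTX day 22 and 2.61, 1.69 and 3.38 CPM in vehicle (2.11 ± 0.46, edgeR adjusted p = 0.0478).

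Lyve1, the hyaluronan receptor of lymphatic endothelium and of some perivascular macrophages, stood at 117, 249 and 95.9 CPM in PTX day 22 and 48.0, 36.3 and 58.2 CPM in vehicle (1.70 ± 0.34, edgeR adjusted p = 0.0456). C1qb, a chain of complement C1q made by macrophages, stood at 121, 235 and 80.5 CPM in PTX day 22 and 49.8, 34.4 and 61.7 CPM in vehicle (1.58 ± 0.35, edgeR adjusted p = 0.0493). Replicate 2 of PTX day 22 was far above the other two for both genes. The whole macrophage list summed to 1853, 3473 and 1418 CPM of gene reads in PTX day 22 and 889, 759 and 1184 in vehicle. Without replicate 2 neither list had a call, and their medians were 0.91 for macrophages and 1.00 for lectins. Without replicate 3 they had 17 and 13 called higher, with medians of 1.6 and 1.79.

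The 2 highest fold changes among the genes called higher belonged to genes outside those lists. Cxcl13, the chemokine that attracts B cells, stood at 3.90, 11.6 and 4.30 CPM in PTX day 22 and 0.869, 0.174 and 1.25 CPM in vehicle (3.08 ± 0.57, edgeR adjusted p = 0.0404). It was the only call among 34 chemokine and receptor genes, where 1.05% of all genes tested were called higher. The list leaned the same way: 30 of the 34 values were positive, with a median of 1.08. In edgeR's test 16 were higher with an unadjusted p under 0.05 (12.6% of all genes tested were). The receptor gene of Cxcl13, Cxcr5, did not reach the filter on low counts. The B cell markers given above were high in replicate 3, whose Cxcl13 level was near that of replicate 1. Npl, an enzyme that breaks down sialic acid, stood at 4.87, 17.8 and 18.4 CPM in PTX day 22 and 1.43, 1.39 and 2.36 CPM in vehicle (2.97 ± 0.48, edgeR adjusted p = 0.0279). Lrg1, a secreted glycoprotein that promotes vessel growth, averaged 48.6 ± 20.3 CPM in PTX day 22 and 12.4 ± 3.08 CPM in vehicle (SD, n = 3 each), and its log2 fold change was 1.97 ± 0.36. Ms4a6b, a membrane protein of leukocytes, had 1.82 ± 0.37.

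A reading of the remaining called genes, chosen after their values were seen and so without a test as a group, found 19 genes of leukocyte signalling and cytoskeleton with log2 fold changes of 0.59 to 1.85. They include Sfpi1, which encodes the myeloid transcription factor PU.1, at 17.7, 26.8 and 12.9 CPM in PTX day 22 and 5.59, 6.51 and 7.87 CPM in vehicle. Others are the kinases Btk and Sykb, the phosphatase Ptpn6, and the actin-binding Lcp1 and Coro1a. Also called were Ncf1 and Cyba, which encode subunits of the phagocyte NADPH oxidase, with log2 fold changes of 1.47 and 1.13. Ncf1 stood at 19.7, 35.1 and 21.2 CPM in PTX day 22 and 6.77, 9.24 and 11.3 CPM in vehicle.

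Complement genes were called higher in 3 of 16 cases (1.05% of all genes tested were), and the list median was 1.03. All 16 values were positive, as were 52.4% of all genes tested. C2, a serine protease of the classical pathway, stood at 58.8, 64.1 and 54.9 CPM in PTX day 22 and 22.7, 22.4 and 26.7 CPM in vehicle (1.31 ± 0.17, edgeR adjusted p = 0.023), with little spread within either group; 38.7% of its 50-base windows also lie in an overlapping gene model. Cfp, properdin of the alternative pathway, had 1.38 ± 0.31. Cfd, the alternative pathway protease adipsin that fat cells secrete, stood at 394, 315 and 367 CPM in PTX day 22 and 153, 189.9 and 121 CPM in vehicle (1.21 ± 0.21, edgeR adjusted p = 0.0316).

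Cfd and Cidec were the 2 called of 20 fat cell genes, whose median was 0.56, where 1.05% of all genes tested were called higher. Cidec, a lipid droplet protein, stood at 33.9, 29.4 and 41.9 CPM in PTX day 22 and 12.5, 19.9 and 12.1 CPM in vehicle (1.24 ± 0.27, edgeR adjusted p = 0.0483). Adiponectin (Adipoq) was also higher in each PTX day 22 library than in any vehicle library but did not pass (1.00 ± 0.23, edgeR adjusted p = 0.0527). Unlike the leukocyte genes, Cfd and Cidec were lowest in PTX day 22 replicate 2. Flt4, the VEGF receptor of lymphatic endothelium, was the only call among 24 vessel genes, at 38.7, 44.2 and 30.9 CPM in PTX day 22 and 15.6, 17.1 and 19.8 CPM in vehicle (1.11 ± 0.16, edgeR adjusted p = 0.023). Most other vessel genes went the same way without a call: 23 of the 24 values were positive (52.4% of all genes tested), with a median of 0.55. In edgeR's test 13 were higher with an unadjusted p under 0.05 (12.6% of all genes tested were). For 15 every PTX day 22 library lay above every vehicle library (14.8% of all genes tested).

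**Figure D2:**
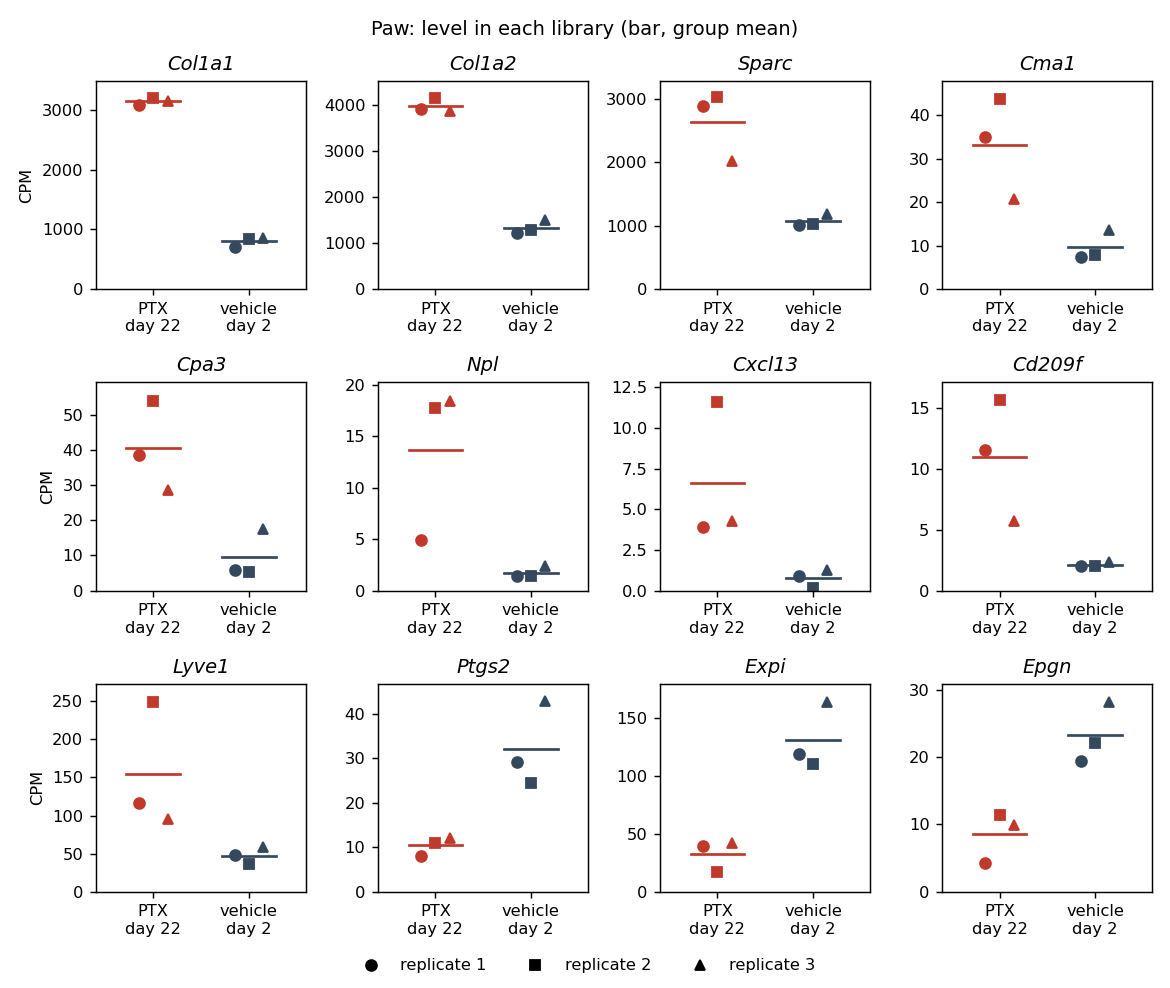
Level in CPM of 12 called genes in the 3 PTX day 22 libraries (left in each panel) and the 3 vehicle libraries (right); each point is 1 library, its shape gives the replicate number and the bar is the group mean. Col1a1 and Col1a2 lie close together within groups, Cma1, Cpa3, Cd209f and Lyve1 are highest in PTX day 22 replicate 2, and Ptgs2, Expi and Epgn lie lower in every PTX day 22 library.

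The 11 genes that fell in PTX day 22 paws came from no common list. Ptgs2, the inducible enzyme that starts prostaglandin synthesis, stood at 8.12, 11 and 12.1 CPM in PTX day 22, against 29.2, 24.5 and 42.8 CPM in vehicle. Its log2 fold change was -1.63 ± 0.25 (edgeR quasi-likelihood adjusted p = 0.0261), and it was the only call among 19 prostaglandin and kinin genes, whose median was 0.33. Over all genes tested 0.0724% were called lower. Of the 19, 7 were higher and 1 lower with an unadjusted p under 0.05 in edgeR's test (12.6% and 6.02% of all genes tested). Expi, a protease inhibitor also named Wfdc18, stood at 39.2, 17.2 and 42.6 CPM in PTX day 22 and 119.6, 110.4 and 164 CPM in vehicle (-1.99 ± 0.36, edgeR adjusted p = 0.0374). Epgn, the EGF receptor ligand epigen, stood at 4.27, 11.4 and 9.93 CPM in PTX day 22 and 19.5, 22.1 and 28.3 CPM in vehicle (-1.45 ± 0.31, edgeR adjusted p = 0.0478).

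Regulators among the lower genes were the homeobox gene Meis1 (-0.95 ± 0.18, edgeR adjusted p = 0.0415) and the salt-inducible kinase gene Sik1, at 146, 177 and 218 CPM in PTX day 22 and 296, 293 and 314 CPM in vehicle (-0.74 ± 0.16, edgeR adjusted p = 0.0478). Sesn1, a stress-induced sestrin, was the only call among 19 p53 targets, at 74.3, 73.4 and 82.2 CPM in PTX day 22 and 106, 118 and 107 CPM in vehicle (-0.53 ± 0.10, edgeR adjusted p = 0.0415). Over all genes tested 0.0724% were called lower. Of the 19 targets, 4 were lower and 0 higher with an unadjusted p under 0.05 in edgeR's test (6.02% and 12.6% of all genes tested), and the median was -0.14. Rnd3, a small GTP-binding protein that acts on the actin cytoskeleton, had -0.52, the corepressor gene Irf2bp2 -0.48 and the repair polymerase gene Polb -0.39. The largest negative value, -2.94 ± 0.59 for the sweet taste receptor gene Tas1r2, was singled out after its values were seen and rests on low counts of 0.232, 0.182 and 0.764 CPM in PTX day 22 and 2.11, 3.20 and 3.79 CPM in vehicle.

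Genes of the cornified layer gave no call but mostly negative values. Of 23 tested, none was called in edgeR's test, 11 were lower with an unadjusted p under 0.05 (6.02% of all genes tested were), DESeq2 called 2 lower, and the median log2 fold change was -0.65. In 15 of the 23 every PTX day 22 library lay below every vehicle library, where 9.78% of all genes tested did. Cnfn, a protein of the cornified envelope, stood at 184, 99.0 and 205 CPM in PTX day 22 and 278, 309 and 362 CPM in vehicle (-0.96 ± 0.27, edgeR adjusted p = 0.0838). The list took 1.22%, 0.757% and 1.55% of gene reads in PTX day 22 and 1.61%, 1.69% and 2.21% in vehicle. With the cornified list's mean as a covariate no gene was called between PTX day 22 and vehicle (1954 had an unadjusted p under 0.05). The log2 fold changes in that fit were 1.72 for Col1a1, 1.70 for Cma1, 1.25 for C2 and 2.22 for Cd209f, which are chosen examples. Because the cornified list itself was mostly lower in PTX day 22, this fit cannot separate its level from the group.

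Clock and early response genes also gave no call but had low members. Nr1d1, the clock repressor REV-ERB alpha, stood at 169, 91.6 and 152 CPM in PTX day 22 and 268, 263 and 236 CPM in vehicle (-0.89 ± 0.21, edgeR adjusted p = 0.0527), and 7 of 19 clock genes had all PTX day 22 libraries below vehicle, where 9.78% of all genes tested had. DESeq2 called 7 of the 19 lower, and 8 were lower with an unadjusted p under 0.05 in edgeR's test (6.02% of all genes tested were). Fosb, an immediate early transcription factor, stood at 46.7, 41.5 and 76.3 CPM in PTX day 22 and 169, 160.2 and 231 CPM in vehicle (-1.77 ± 0.40, edgeR adjusted p = 0.0535). None of 17 genes of its list was called by edgeR, 3 were lower with an unadjusted p under 0.05 (6.02% of all genes tested were) and DESeq2 called 1. Only 2 of the 17 values were positive, and the list median was -0.32. In 8 of the 17 every PTX day 22 library lay below every vehicle library, where 9.78% of all genes tested did. The labels give no hour of sampling.

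Lists for the nerve supply held no call. Of 18 Schwann cell and myelin genes and 15 sensory neuron genes, edgeR's test and DESeq2 called none, none had an unadjusted p under 0.05, and the medians were 0.03 and 0.06. Over the 15 alternatives these medians ran from -0.24 to 0.19 and from -0.62 to 0.11. Trpv1, the heat and capsaicin channel, stood at 0.51, 0.681 and 0.955 CPM in PTX day 22 and 0.621, 0.465 and 0.416 CPM in vehicle, so low that a change of its size (0.52 ± 0.68) was not detectable. Of 16 neurotrophic genes none was called by edgeR, 5 had an unadjusted p under 0.05 (18.7% of all genes tested had) and DESeq2 called 3. Bdnf, a nerve growth factor family member, stood at 7.05, 3.50 and 6.64 CPM in PTX day 22 and 10.9, 11 and 12.5 CPM in vehicle (-1.0 ± 0.26, edgeR adjusted p = 0.0667).

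Genes of tubulins, the proteins of the microtubules that the drug stabilises, and of microtubule-associated proteins held no edgeR call among 26. They had 7 with an unadjusted p under 0.05 (18.7% of all genes tested) and 2 DESeq2 calls, and a median of -0.04. Tubb5, a widely expressed beta tubulin, stood at 316, 351 and 216 CPM in PTX day 22 and 213, 201 and 190.0 CPM in vehicle (0.55 ± 0.17, edgeR adjusted p = 0.0982). Of 20 cell division genes neither tool called any, 1 had an unadjusted p under 0.05, and the median was 0.01. Skeletal muscle genes (0 of 25 by either tool, none at an unadjusted p under 0.05, median -0.27) took 2.67%, 3.26% and 3.65% of gene reads in PTX day 22 and 5.01%, 4.71% and 1.91% in vehicle. Vehicle replicate 3 had the lowest muscle share of the 6, and with the muscle list's mean as a covariate 891 genes were called.

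Neutrophil genes had a list median of 4.47 over 8 tested, which was 1.86 without PTX day 22 replicate 3 and 2.51 over the 4 genes that passed the filter with only the libraries of the 2 groups. Of the 8, Retnlg, Ngp, Ltf and Mmp8 had 5, 10, 4 and 3 reads in the vehicle libraries together and passed the filter on low counts through PTX libraries. The median of 4.47 thus rests in part on genes that entered because PTX libraries were high, and it is a description only. The spread of the 8 genes was wide, with none called by edgeR, 4 with an unadjusted p under 0.05 (18.7% of all genes tested had) and 3 DESeq2 calls. The 13 markers summed to 10.5, 124 and 239.7 CPM of gene reads in PTX day 22 and 14.2, 10.1 and 42.6 in vehicle. Replicate 1 of PTX day 22 thus lay within the vehicle range and the other two above it. Csf3r, the receptor for granulocyte colony-stimulating factor, stood at 1.16, 8.49 and 28.4 CPM in PTX day 22 and 0.310, 0.349 and 1.11 CPM in vehicle (4.36 ± 1.17, edgeR adjusted p = 0.0776). The stress keratin gene Krt6b was high in replicate 2 alone, at 0.974, 212 and 23.3 CPM in PTX day 22 and 3.91, 2.27 and 31.5 CPM in vehicle, and was chosen after its values were seen. Of 20 T and NK cell markers, 9 reached the filter and edgeR called none (3 with an unadjusted p under 0.05, 1 DESeq2 call), and of 22 interferon-stimulated genes edgeR called none (5 with an unadjusted p under 0.05, 1 DESeq2 call).

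The remaining lists held no edgeR call either. Of 19 antigen presentation and dendritic cell genes (median 0.66), 12 had an unadjusted p under 0.05 (18.7% of all genes tested had) and DESeq2 called 7. Irf8, a transcription factor of dendritic cells and monocytes, had a log2 fold change of 1.10 ± 0.27 (edgeR adjusted p = 0.0585). Of 26 interleukin and TNF family genes (median 0.65), 15 had an unadjusted p under 0.05 and DESeq2 called 11. Il1b, the inflammatory cytokine interleukin 1 beta, stood at 0.325, 10.7 and 8.64 CPM in PTX day 22 and 0.248, 0.349 and 0.324 CPM in vehicle, so that PTX day 22 replicate 1 lay among the vehicle libraries. Of 16 tendon, cartilage and bone genes (median 0.82), 6 had an unadjusted p under 0.05 and DESeq2 called 2. The list median ran from 0.0027 to 0.97 over the 15 alternatives. Ctsk, the collagen-degrading cathepsin of osteoclasts, stood at 80.1, 127 and 152 CPM in PTX day 22 and 48.9, 48.2 and 74.2 CPM in vehicle (1.07 ± 0.30, edgeR adjusted p = 0.0798). Within PTX day 22, Ctsk and the bone gene Ibsp were highest in replicate 3, while Tnmd of the same list was lowest there, at 42.6, 41.1 and 20.5 CPM.

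Among the lists of surface structures, 2 of 18 epidermal keratin genes had an unadjusted p under 0.05. So had 3 of 12 sweat gland genes and 1 of 20 hair follicle genes, beside 18.7% of all genes tested. DESeq2 called 1, 0 and 0 in these lists, and the medians were -0.00, -0.26 and 0.28. The hair follicle median ran from -0.36 to 0.86 over the 15 alternatives. Of 15 glucocorticoid-responsive and 19 heat shock genes, 5 and 3 had an unadjusted p under 0.05, DESeq2 called 3 and 0, and the medians were 0.12 and -0.12. None of 30 respiratory chain genes or 6 pigment cell genes had an unadjusted p under 0.05 or a DESeq2 call, with medians of -0.06 and 0.10. The B and plasma cell list, with 2 genes above the filter, held no call by either tool and 2 genes with an unadjusted p under 0.05; Blk, a kinase of B cells, stood at 0.881, 0.363 and 4.82 CPM in PTX day 22 and 0.372, 0.523 and 0.463 CPM in vehicle (2.13 ± 0.90, edgeR adjusted p = 0.22), with the high value in replicate 3 alone. The red blood cell list had 1 gene above the filter, which neither tool called and whose unadjusted p exceeded 0.05.

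**Figure D3:**
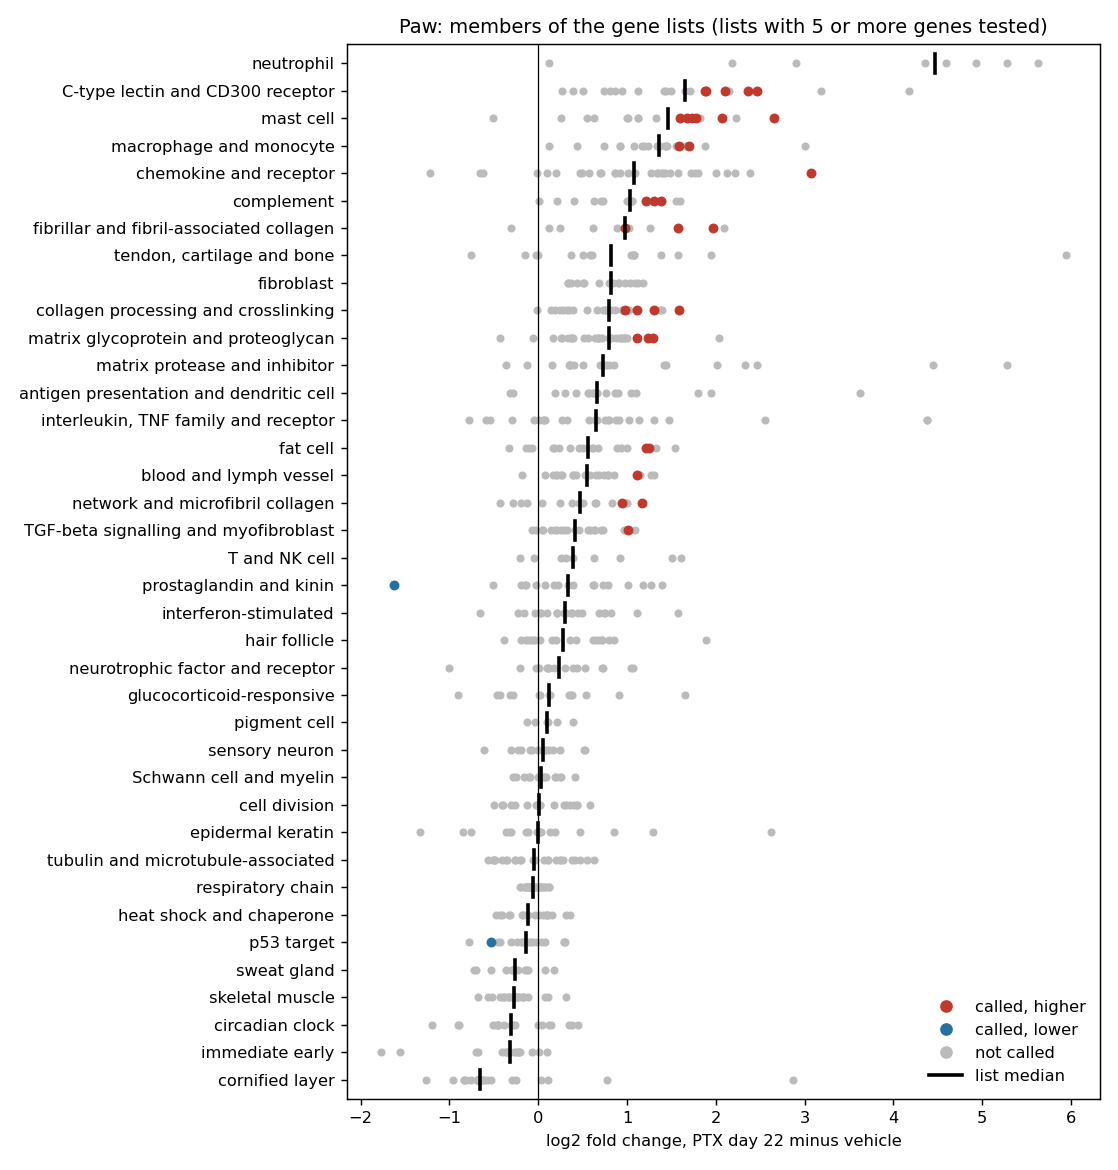
Log2 fold change, PTX day 22 minus vehicle (horizontal axis), of every tested member of each gene list with at least 5 genes tested (rows, ordered by median); points are genes, coloured by call, and the bar is the list median. Calls concentrate in the lectin, mast cell, collagen and complement rows, and the neutrophil row is wide with no call.

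The mast cell and collagen levels were also followed across the PTX days. The comparisons of PTX day 22 with the other groups share the 3 PTX day 22 libraries, so their values are set side by side only. The mean log2 CPM of the 18 mast cell genes was 1.43, 1.57 and 2.31 in vehicle, 2.52, 2.70 and 2.86 at PTX day 2, 2.72, 3.31 and 3.09 at day 7, 2.97, 3.45 and 2.70 at day 22, and 2.10, 2.33 and 2.43 at day 35. All PTX day 2 libraries were thus already above vehicle on this mean, while the day 35 libraries lay below every day 22 library and overlapped vehicle. The 3 day 35 libraries have another form of title and of HTSeq summary rows than all other paw libraries. The labels do not say whether they were handled apart. Any such difference cannot be told apart from the day in all comparisons with day 35. Cma1 averaged 9.65 ± 3.42 CPM in vehicle, 25.5 ± 2.74 at PTX day 2, 33.4 ± 7.82 at day 7, 33.1 ± 11.7 at day 22 and 15.5 ± 2.79 at day 35 (SD, n = 3 each).

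The fibrillar collagen mean was 6.30, 6.46 and 6.28 log2 CPM in vehicle, 6.35, 6.39 and 6.38 at PTX day 2, 6.68, 6.79 and 7.25 at day 7, 7.16, 7.38 and 7.30 at day 22, and 6.76, 6.04 and 7.17 at day 35. Here PTX day 2 lay within the vehicle range. Col1a1 averaged 803 ± 79.3 CPM in vehicle, 1154 ± 187 at PTX day 2, 1854 ± 1008 at day 7, 3140.4 ± 57.1 at day 22 and 1817 ± 608 at day 35 (SD, n = 3 each), with a single day 7 library at 3017 CPM and a single day 35 library at 2508 CPM near the day 22 level. The lectin mean at PTX day 2, 1.63, 1.71 and 1.79 log2 CPM, lay above the vehicle libraries at 1.03, 0.85 and 1.51.

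**Figure D4:**
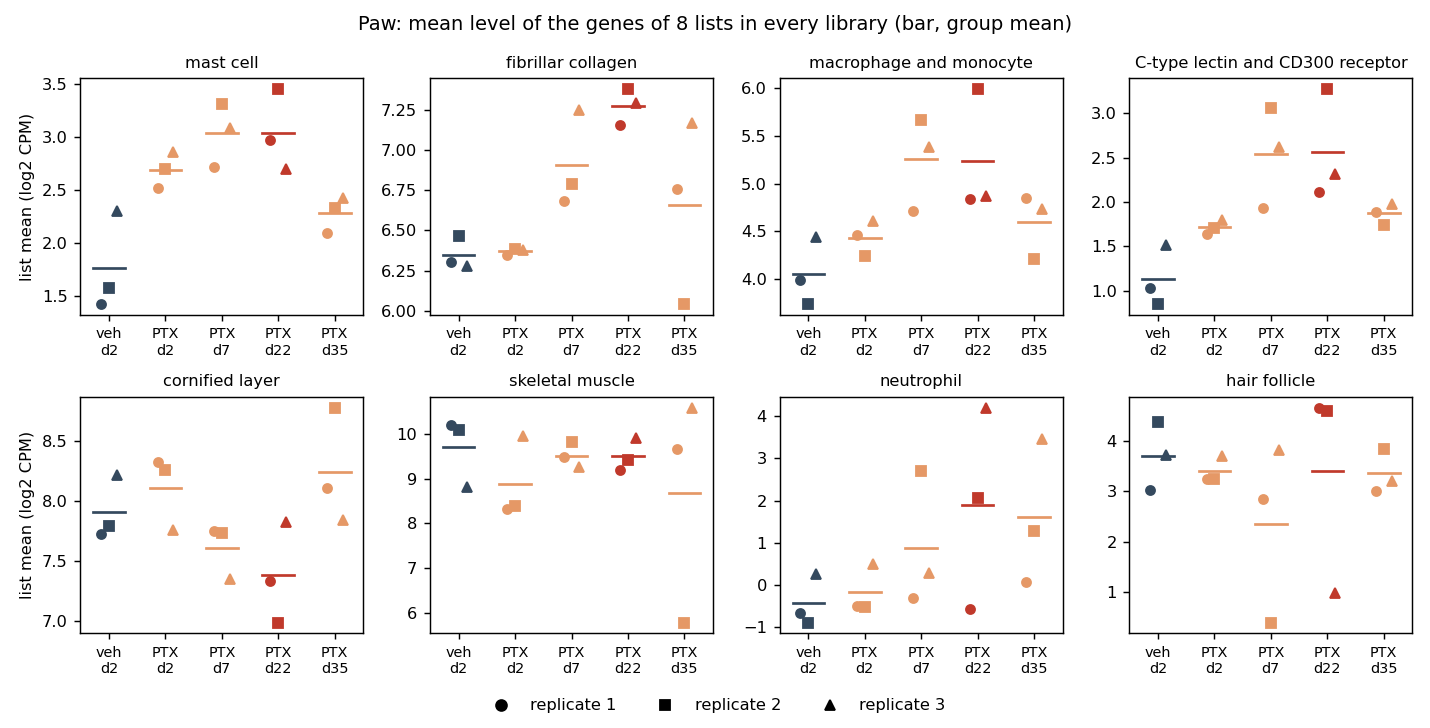
Mean log2 CPM of the genes of 8 lists (vertical axis of each panel) in every paw library, by group in order of day from vehicle to PTX day 35; points are libraries, shapes are replicate numbers and bars are group means. The mast cell mean is above all vehicle libraries at PTX days 2, 7 and 22, and the group mean of the fibrillar collagens is highest at day 22. PTX day 22 replicate 3 is highest in the neutrophil panel. In the hair follicle panel it lies below every other library except PTX day 7 replicate 2.

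Tests between PTX days gave few calls. PTX day 22 against PTX day 2 called 1 of 15199 genes in edgeR's test (0.00658%; 3104 genes, or 20.4%, had an unadjusted p under 0.05), PTX day 22 against day 7 called none (391 genes, or 2.57%, had an unadjusted p under 0.05, and DESeq2 called 2), and PTX day 22 against day 35 called none (3077 genes, or 20.2%, and 1236 with DESeq2). PTX day 2 against vehicle, the pair with matched titles, also gave none (1119 genes, or 7.36%, and 41 with DESeq2). Leaving out PTX day 22 replicate 3 gave 817 calls against PTX day 2 and 1086 against day 35.

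The gene called against PTX day 2 was Sfrp4, a secreted protein of fibroblasts that binds Wnt ligands. It stood at 14.6, 14.2 and 16.2 CPM in vehicle, 16.3, 11.4 and 15.6 CPM at PTX day 2, 28.5, 22.5 and 30.8 CPM at day 7, 37.2, 60.6 and 41.6 CPM at day 22, and 20.8, 30.1 and 25 CPM at day 35. Every PTX day 22 library lay above all 12 others. The log2 fold change was 1.69 ± 0.21 against PTX day 2 (edgeR adjusted p = 0.0208) and 1.63 ± 0.20 against vehicle (edgeR adjusted p = 0.023), and against vehicle it was also called without PTX day 22 replicate 3 but not without replicate 2. No gene was called against PTX day 2 when PTX day 22 replicate 2 or any 1 of the 3 PTX day 2 libraries was left out. The genes that fell had other courses: Ptgs2 averaged 32.2 ± 9.51 CPM in vehicle, 26.9 ± 4.11 at PTX day 2, 30.1 ± 5.85 at day 7, 10.4 ± 2.07 at day 22 and 24.3 ± 6.90 at day 35 (SD, n = 3 each). Expi averaged 131 ± 28.8 CPM in vehicle, 166 ± 53.8 at PTX day 2, 80.3 ± 21.6 at day 7, 33.0 ± 13.8 at day 22 and 76.2 ± 19.0 at day 35 (SD, n = 3 each).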

How the data were processed

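Polyadenylated RNA from the 6 paw libraries described above, and from 9 further paw libraries of PTX days 2, 7 and 35, was sequenced as 50-base single reads after a stranded mRNA kit, per the labels' protocols. Samples were split with bcl2fastq, aligned with TopHat2 to mm9 and counted with HTSeq, per the submitters' processing notes, with versions not given in the sources used here. The authors deposited raw read counts of 22609 gene symbols per library. HTSeq's summary rows were dropped, and reads with several alignments count to no gene.

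Counts were tested in R 4.3.3 with edgeR 4.0.16 (limma 3.58.1): filterByExpr (smallest count 10, smallest total 15) left 15199 genes, libraries were TMM-scaled, the 15 libraries entered 1 robust quasi-likelihood fit with a coefficient per group, and p-values were Benjamini-Hochberg adjusted over all genes (threshold 0.05). Log2 CPM values used a prior count of 2. Log2 fold changes came from the fit with edgeR's default prior count, and their SE is the log2 fold change over the square root of F. CPM uses TMM-scaled library sizes; sums of marker lists, shares and the tissue markers use total gene reads. Replicate pairs differed by more than counting noise (chi-square per degree of freedom of 6.33 to 231 over 15 pairs). Scripts were tested on simulated data. Alternatives were 2 other scalings, DESeq2 1.42.0, no filter, other sets of libraries, 2 covariates, a replicate block and leaving out each library. Labels gave every library, vehicle included, the same PTX treatment text; the groups come from the titles.

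Members and lists (40 lists; 797 of 801 genes found, 21 by an older symbol) were chosen with earlier results of these data known. Genes were named by rule: the 12 highest and 12 lowest called genes whose level averaged 1 or more in log2 CPM, up to 5 called genes of each list, or up to 2 by smallest p where a list had none, the few highest and lowest of other comparisons, and tissue markers; Cxcr5, Kit, Gata2, Il1b, Krt6b, Mcpt1, Mcpt2, Rab27b, Hdc, Mrgprb2, Col3a1, Adipoq, Ibsp, Bglap, Mpo, Cd79a and Ms4a1 were added with their values in view. Some genes that the rule names are not reported here. Promoter windows came from RefSeq (GRCm38.p6), another build than the counts, and were matched by symbol; shared 50-base windows were sought in GRCm38 transcripts.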

Additional observations from a re-analysis of the deposited data

Results flagged for a closer look

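The rise of Sfrp4 differed between time points of the drug: the direct contrast of PTX day 22 minus PTX day 2 gave a log2 difference of 1.69 ± 0.21 (SE, edgeR quasi-likelihood adjusted p = 0.0208), where each of the 3 PTX day 22 libraries lay above each of the 3 PTX day 2 libraries. Groups of 3 libraries were too small for a test of single deviating libraries, so the values of PTX day 22 replicate 3 are a description.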

How the results depend on the processing

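Of the 170 calls between PTX day 22 and vehicle, the number became 51 with DESeq2's size factors, 1321 with DESeq2's Wald test, 891 with the muscle covariate, 0 with the cornified covariate and 0 with only the 2 groups (2747 at an unadjusted p under 0.05). It was 201 with upper quartile scaling, 149 without a filter and 139 without the day 35 libraries. Leaving out 1 library gave 0 to 1255 calls. For PTX day 22 against PTX day 2 (1 call) the number was 1238 with DESeq2, 0 with the cornified covariate, 0 with only the 2 groups (1413 and 2359 at an unadjusted p under 0.05) and 0 to 817 without 1 library. For day 22 against day 7 it was 2 with DESeq2 and 0 to 0 without 1 library, for day 22 against day 35 it was 1236 and 0 to 1086, and for PTX day 2 against vehicle 41 and 0 to 0.

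The titles number the replicates 1 to 3, but libraries of the same number did not deviate together (correlations of -0.0877 to 0.0384 between PTX day 22 and vehicle), so the numbers were not taken as pairs. With the replicate block 75 genes were called against vehicle, 60 of them shared with the 170, and 3 against PTX day 2.

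None of the 170 changed sign under any alternative. All 170 had libraries that did not overlap between the groups, so leaving out 1 of these libraries could hardly reverse a sign. For those alternatives the kept sign is therefore no check of the calls. Of the 45 named genes that were called, all 45 kept the call under DESeq2, under the muscle covariate and without PTX day 22 replicate 3, and none did with the cornified covariate, with only the 2 groups, or without PTX day 22 replicate 2, vehicle replicate 1 or vehicle replicate 2. Values of the uncalled genes that the naming rule picked changed sign in 4 cases. These were Cnp at -0.00682 with the cornified covariate, Ndufb3 at 0.0142 without vehicle replicate 1, and Tyrp1 at -0.0160 and Tyr at -0.316 without PTX day 22 replicate 1. Single values of uncalled genes added with their values in view, such as Kit, Col3a1, Il1b and Krt6b, were not followed through the alternatives. Leaving out 1 library at a time, Ndufb3 ran from -0.20 to 0.0142, Tyrp1 from -0.0160 to 0.44 and Tyr from -0.316 to 0.96. The causes were not tested. Depth limits scarce genes most, among them those of sensory neurons.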

Other observations

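Lysosomal enzymes and plasma proteins were also among the genes called higher in PTX day 22 paws; they were grouped after their values were seen. The lysosomal hydrolase genes Gusb, Glb1, Arsa and Man2b1 had log2 fold changes of 0.66 to 1.00 (edgeR quasi-likelihood calls). Gusb stood at 39.2, 53.7 and 29.0 CPM in PTX day 22 and 18.8, 21.3 and 20.9 CPM in vehicle. The iron carrier gene Trf and the copper-binding Cp had log2 fold changes of 1.19 and 1.08. Trf stood at 236, 202 and 204 CPM in PTX day 22 and 94.8, 106 and 81.0 CPM in vehicle, and the groups did not overlap.

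Single receptors and enzymes outside the lists, also picked after their values were seen, were called as well. Ptafr, the receptor for platelet-activating factor, stood at 6.40, 8.68 and 4.87 CPM in PTX day 22 and 2.11, 1.45 and 2.54 CPM in vehicle, a log2 fold change of 1.70 ± 0.24 (edgeR adjusted p = 0.023). F13a1, the transglutaminase chain of coagulation factor XIII that macrophages also make, had 1.57 ± 0.33 (edgeR adjusted p = 0.0476). Axl, a receptor tyrosine kinase that takes part in clearing dead cells, averaged 372 ± 122 CPM in PTX day 22 and 196 ± 15.2 CPM in vehicle (SD, n = 3 each), and its log2 fold change was 0.93 ± 0.19 (edgeR adjusted p = 0.0465). Gpr81, the lactate receptor of fat cells, stood at 2.88, 1.77 and 3.15 CPM in PTX day 22 and 0.745, 0.291 and 0.509 CPM in vehicle (2.33 ± 0.49, edgeR adjusted p = 0.0476), and like Cidec it was lowest in PTX day 22 replicate 2.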
